A study of Mus musculus with 2 samples.

Results

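Ribosomal protein pseudogenes are copies of the genes that encode the proteins of the cytosolic ribosome. In stomach RNA from mouse embryos of day 16.5 they were taken as every gene whose GENCODE symbol begins with Rpl or Rps and ends in -ps with or without a number, and whose biotype contains the word pseudogene. The rule found 251 of the 43346 annotated mouse genes in the deposited tables. Of these 251, 245 were annotated as processed pseudogenes and 6 as transcribed processed pseudogenes. The symbol before -ps was read as the parent, which gave 58 families. For 249 of the 251 pseudogenes the parent was in the tables as a protein-coding gene. A further 6 symbols of this form are protein-coding genes and were left out. The rule itself reads no measured value, but the set was selected on the earlier observation that pseudogenes had higher relative levels in replicate 2 of these same libraries. The ratios between the libraries are therefore a description.

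The series held 1 group of 2 biological replicates. Each was a pool of stomachs of both sexes, taken from B6NCrl embryos, with no altered allele and no treatment named. Replicate 2 came from 41 embryos, and the number of embryos is not given for replicate 1. With 1 group there was no condition to compare and no test was made: differences between the libraries are differences between 2 pools, and each value is given for replicate 1 and then replicate 2.

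Cytosolic ribosomes are built from many different proteins, each usually encoded in mouse by a single intron-bearing gene that is transcribed strongly in every dividing cell. Reverse transcription of these abundant, short messenger RNAs by retrotransposon enzymes in the germ line has left many intronless copies in the genome, called processed pseudogenes. A young copy differs from the spliced parent at few bases, so a sequencing read can often be placed equally well on both, and estimated counts divide such reads between them.

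The sequences show how close a copy can be to its parent. All coordinates are on GRCm38, sequences were taken 5′ to 3′ along the gene's own strand from the GENCODE M21 transcripts, and positions count from 1 at the A of the parent's start codon. The first 3 are the pseudogenes with the highest mean level, shown over the first 100 bases of the coding sequence. Rps23-ps1 is at chr3:37714740-37714839 on the plus strand, Rpl15-ps3 at chr9:22186122-22186221 on the minus strand and Rps6-ps4 at chr2:75191723-75191822 on the minus strand. Each of these 3 stretches has 0 differences from its parent, so the same letters are those of Rps23, Rpl15 and Rps6, and no base is in capitals.
Rps23-ps1: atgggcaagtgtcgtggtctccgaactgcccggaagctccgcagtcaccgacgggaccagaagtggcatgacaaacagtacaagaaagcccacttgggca
Rpl15-ps3: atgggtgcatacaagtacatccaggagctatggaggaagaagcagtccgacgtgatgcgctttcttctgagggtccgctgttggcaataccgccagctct
Rps6-ps4: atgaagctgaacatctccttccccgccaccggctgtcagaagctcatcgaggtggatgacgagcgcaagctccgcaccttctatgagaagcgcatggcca

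The next pairs are the pseudogenes with the largest difference toward replicate 2 among those at 5 TPM or more on average, each followed by its parent, with the bases that differ in capitals. TPM is a gene's length-corrected share of all transcripts, scaled to a fixed total. The stretch of Rps25-ps1 is at chr6:145266400-145266499 on the plus strand and holds 2 of its 4 substitutions, T6G and G55A, the others being G159A and C188T. The stretch of Rps26-ps1 is at chr8:107439463-107439562 on the minus strand and holds C30T, while its other substitution is G270A.
Rps25-ps1: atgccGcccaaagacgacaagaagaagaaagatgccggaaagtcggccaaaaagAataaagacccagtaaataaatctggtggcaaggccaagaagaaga
Rps25: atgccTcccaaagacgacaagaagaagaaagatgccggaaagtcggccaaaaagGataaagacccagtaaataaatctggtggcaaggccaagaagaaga
Rps26-ps1: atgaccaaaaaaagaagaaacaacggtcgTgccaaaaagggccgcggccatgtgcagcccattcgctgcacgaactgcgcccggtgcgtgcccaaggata
Rps26: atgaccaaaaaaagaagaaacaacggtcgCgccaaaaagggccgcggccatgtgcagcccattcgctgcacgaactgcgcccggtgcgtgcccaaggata

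A further 2 pairs were chosen after their values were seen, because each copy differs from its parent by a single substitution. Rpl19-ps11 is shown at chr8:19493076-19493175 on the plus strand with its only substitution, G191A. Rpl35a-ps2 is shown at chr1:181242116-181242215 on the minus strand with its only substitution, G156A.
Rpl19-ps11: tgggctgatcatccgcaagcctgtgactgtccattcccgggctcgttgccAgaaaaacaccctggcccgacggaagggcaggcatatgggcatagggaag
Rpl19: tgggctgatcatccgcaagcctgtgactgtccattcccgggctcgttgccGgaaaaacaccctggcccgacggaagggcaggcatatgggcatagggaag
Rpl35a-ps2: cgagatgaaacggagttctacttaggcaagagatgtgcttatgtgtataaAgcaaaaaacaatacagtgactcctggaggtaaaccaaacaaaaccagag
Rpl35a: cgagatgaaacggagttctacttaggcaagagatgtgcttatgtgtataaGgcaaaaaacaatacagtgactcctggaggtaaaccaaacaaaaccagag

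Most ribosomal protein pseudogenes had little or no assigned RNA, and a few had as much as an abundant gene. Of the 251, 57 (22.7%) reached 1 TPM in both libraries, against 15372 of 43346 annotated genes (35.5%), 494 of 7655 other pseudogenes (6.45%) and all 79 of 79 cytosolic ribosomal protein genes. Other pseudogenes are all those outside the symbol rule. They include some with ribosomal protein symbols of another form, such as Rpl6l and Rps3a2, and those with symbols that name no parent. The values of the set cover the 251 only. The median pseudogene of the set stood at 0.12 and 0.11 TPM. In all, 94 were listed at 0 TPM in both libraries, and 103 and 121 in each. At the other end, 10 and 14 pseudogenes reached 100 TPM. The 10 highest in each library held 89.2% and 76.8% of all TPM assigned to the set there.

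Together the pseudogenes were assigned 5954 TPM in replicate 1 and 7052 TPM in replicate 2. The 79 ribosomal protein genes summed to 59415 and 53657 TPM, with a median of 671 and 587 and a range of 51.6 to 3153 and 50.7 to 3129.8. Pseudogenes therefore took 9.11% and 11.6% of the TPM of genes and pseudogenes together, a mean of 10.4% ± 1.77 (SD, n = 2), higher in replicate 2. Of the expected counts of the same genes they took 6.52% and 8.47%. Of the counts assigned to mouse genes they took 0.174% (Wilson 95% interval 0.172 to 0.175) and 0.201% (0.200 to 0.203). No spread between pools is in these intervals, only counting error. The libraries summed to 44567153 and 25677702 expected counts.

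The libraries differed in the levels of tissue markers as well as in depth. All 10 stomach markers were above 1 TPM in both, from 5.12 to 3252 TPM, and their sum was 4306 and 7618 TPM. The 4 skeletal muscle markers summed to 1855 and 165 TPM, the 4 pancreas markers to 10952 and 12003, the 3 liver markers to 1135 and 889 and the 4 globin genes to 26445 and 25387. Of the 2 lung markers 0 reached 1 TPM in both, with sums of 0.53 and 0.99. The part of these marker levels in the pseudogene values was not tested. In a pool of whole organs, fewer cells of a type and less RNA per cell cannot be told apart.

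Rps23-ps1, a copy of the small-subunit gene Rps23, had the highest level. Its TPM was 1209.7 and 1083.9, or 1147 ± 88.9 (SD, n = 2), from 12104 and 6065 expected counts. The parent Rps23 stood at 212 and 171 TPM, so the level assigned to the pseudogene was 572% and 634% of the level assigned to the parent. Replicate 1 was higher for both genes. Rps23-ps1 lies on chromosome 3 from 37714740 to 37715164 on the plus strand and overlaps an exon of Gm5148 on the opposite strand. It ranked 82nd and 95th among all annotated genes by TPM. Its annotated sequence of 425 bases ends inside the parent coding sequence of 432 bases, after 141 of 143 codons and before any stop codon. The alignment covers 98.4% of the parent coding sequence.

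Rpl15-ps3, a copy of the large-subunit gene Rpl15, stood at 769.96 and 773 TPM, and Rpl15 itself at 267 and 230.5. The level of the pseudogene differed little between the pools. The authors' deposited interval for Rpl15-ps3 ran from 517 to 764 and from 593 to 767 TPM, so both deposited TPM values lay above their own intervals. The same held for Rps23-ps1 in replicate 2, where the interval ran from 1019 to 1081. These intervals come from the quantification and do not cover the spread between pools.

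Rpl27-ps3, a copy of the large-subunit gene Rpl27, stood at 444.5 and 452.5 TPM against 107 and 99.8 for Rpl27. Rpl31-ps8, a copy of Rpl31, stood at 579.9 and 604 TPM against 401 and 315 for the parent. Rpl28-ps1, a copy of Rpl28, stood at 549 and 564 TPM against 309 and 259. All of these large-subunit copies were assigned more than their parents in both libraries.

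Rps6-ps4 is a copy of Rps6, whose protein is the ribosomal target of S6 kinase. It stood at 586 and 602 TPM and was close to its parent in replicate 1, at 582 TPM, and above it in replicate 2, at 462. Rpl10a-ps1, a copy of Rpl10a, crossed its parent: it stood at 306 and 274 TPM, against 256 and 282 for Rpl10a. Over the whole set, 7 pseudogenes stood above their parent in replicate 1 and 6 in replicate 2, and 11 and 18 stood above 10% of it. The median pseudogene was assigned 0.0299% and 0.0259% of its parent's TPM, and the median of the 57 detected ones 1.11% and 3.44%.

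The remaining copies without a base difference lay below their parents. Rpl38-ps2 stood at 283 and 362 TPM, against 803 and 665 for Rpl38. Rpl10-ps1, annotated as transcribed, stood at 261 and 210.4 TPM, against 668 and 545 for Rpl10. It lies in an intron of Pax6os1 on the same strand.

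The identical copies of Rps13 and Rps16 were higher in replicate 2, and their parents were lower there. Rps13-ps2 stood at 322 and 486 TPM, and Rps13 at 587 and 494. Rps16-ps2 stood at 87.5 and 179 TPM, and Rps16 at 747 and 607.

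**Figure D1:**
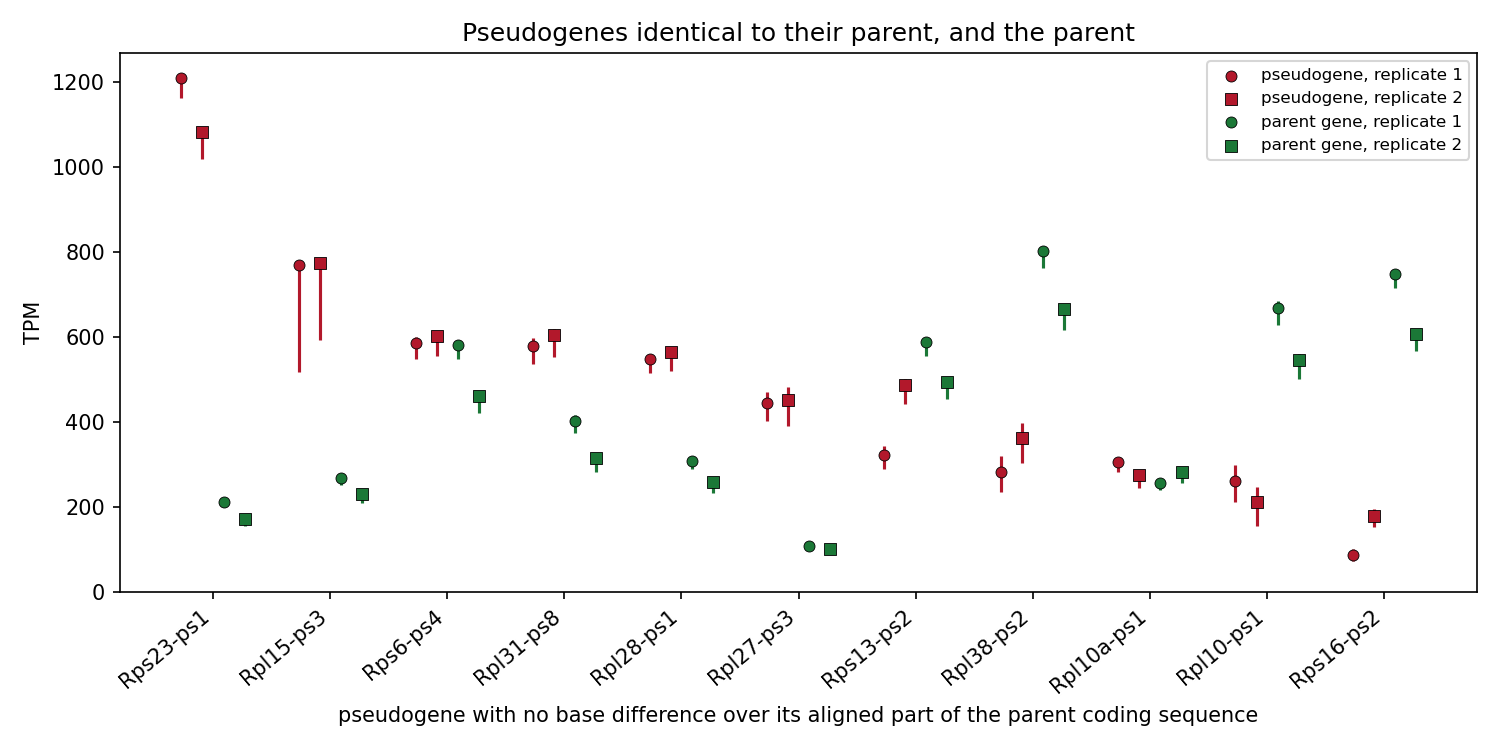
TPM of the 11 pseudogenes with no base difference from the parent over the aligned coding sequence (red) and of their parents (green), with replicate 1 as circles, replicate 2 as squares and vertical lines for the authors' deposited intervals. Rps23-ps1 stands highest, at 1209.7 and 1083.9 TPM, and Rps16-ps2 lowest among the pseudogenes.

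These 11 copies formed the top of the set by sequence. Identity was measured over the part of the parent coding sequence that aligned, for the 244 pseudogenes whose alignment covered at least 50% of it. The median identity was 96.5% and the lowest 67.6%. Among the copies at 100%, Rpl31-ps8 covered 88.7% of the coding sequence, Rps23-ps1 98.4% and Rps13-ps2 99.3%, and the others all of it. All 11 copies at 100% identity reached 1 TPM in both libraries, as did 26 of 39 from 99% to under 100%, 11 of 35 from 98% to under 99%, 6 of 62 from 95% to under 98% and 2 of 97 under 95%. The detected share therefore went from 100% through 66.7%, 31.4% and 9.68% to 2.06%. The 11 identical copies held 5399 and 5591 TPM, which is 90.7% and 79.3% of all TPM of the set. The 39 copies of the next class held 384 and 1042 TPM, and the 97 below 95% held 11.25 and 11.85. The median parent TPM was 619 for detected copies and 533 for the others.

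**Figure D2:**
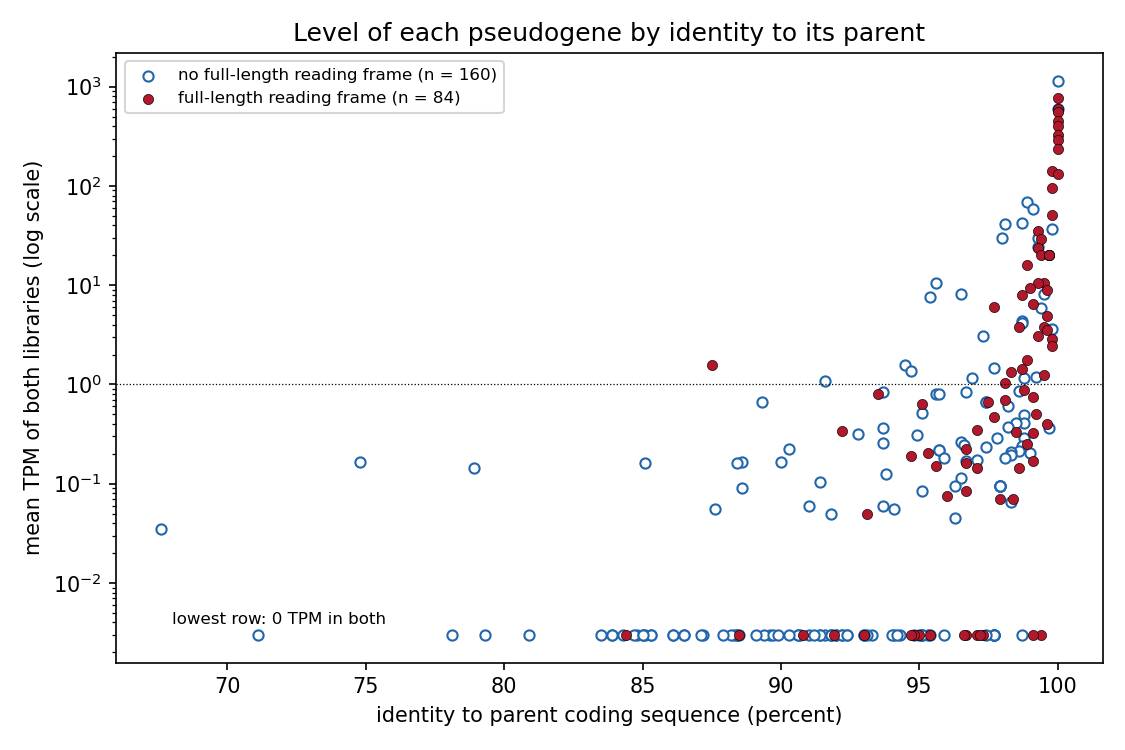
Mean TPM of both libraries (log scale) against identity to the parent coding sequence for the 244 classed pseudogenes. Points are filled where the reading frame has the length of the parent's longest annotated coding sequence. Levels of 100 TPM and more are found at and just below 100% identity, and pseudogenes at 0 TPM in both libraries are drawn as the lowest row.

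Detected copies more often had a reading frame as long as the parent's longest annotated coding sequence, which was the reference. Such a frame was found in 84 of the 244 copies with a measured identity: 36 of 56 detected ones (64.3%) and 48 of 188 others (25.5%). A frame without a stop codon was counted to the end of the sequence. Some copies missed the reference length despite high identity. Rpl31-ps8, at 100%, has 125 codons against 129, and Rps19-ps6, at 98.1%, has 145 against 212. The part of this choice of reference in the difference was not tested. Gaps that shift the frame were found in 83, of which 7 were detected and 76 were not. The median identity was 99.4% in detected copies and 95% in the others, so reading frame and identity cannot be told apart here.

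In their M21 sequences, the highest copies had no stretch of 100 bases that was theirs alone. Each pseudogene was cut into all its stretches of 100 bases, and a stretch was called its own when no other gene of the tables held it on either strand. The 11 identical copies had 0 such stretches. For Rpl27-ps3 the deposited length of 475 bases exceeds that of M21, so the rest of what was counted was not examined. Over the whole set 28 pseudogenes had none, and these held 91.4% and 81.1% of the TPM. The 95 whose stretches were all their own held 0.592% and 1.15%, and 4 of them reached 1 TPM in both libraries. Parents were also affected, but they were scored over the coding sequence only. There 17 of 56 had no stretch of their own, and the median parent had 22.5%. The rest of the parent transcripts was not examined. For these pseudogenes the split of counts with the parent, and with other genes holding the same stretches, is uncertain. Counting the parent, Rps23-ps1 shared stretches with 9 other genes, Rpl15-ps3 with 6 and Rps6-ps4 with 9. Rps12-ps11, also without a stretch of its own, had 15.7% of its stretches in its parent. The levels above are those the authors' quantification assigned.

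The width of the deposited intervals varied among the copies. Among pseudogenes at 1 TPM or more, the median interval width was 73.6% and 59.3% of the TPM value. For ribosomal protein genes it was 4.44% and 6.49%. These sets stand at unlike levels. Of the 65 pseudogenes at 1 TPM or more in each library, 10 and 14 reached 100 TPM, while the median ribosomal protein gene stood at 671 and 587. The part of level in the widths was not tested. Some of the highest copies had intervals narrower, relative to TPM, than the median pseudogene and wider than the median ribosomal protein gene. Examples are 516 to 559.9 and 519 to 574 TPM for Rpl28-ps1 and 548 to 601 and 555 to 613 for Rps6-ps4.

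Rpl39-ps, a copy of the large-subunit gene Rpl39, had the highest level among copies with only their own stretches. It stood at 16.4 and 43.7 TPM, against 460.4 and 352 for Rpl39. The deposited lengths of Rpl39-ps and of Rpl36-ps3 below differ from those of M21, so their share of own stretches is less certain. Rpl36-ps3 stood at 4.28 and 11.5 TPM, against 1309.5 and 1189.5 for Rpl36. Both copies were higher in replicate 2, and both parents were lower there.

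Ribosomal protein pseudogenes were on balance higher in replicate 2 than in replicate 1, as described above for the choice of the set. Ratios are log2 CPM (counts scaled to a fixed library total) in replicate 1 minus replicate 2, for genes past a low-count filter that needs counts in both libraries. The filter kept 56 of the 251 pseudogenes. Their median ratio was -1.06, with a range of -2.39 to 0.37, and 46 were below 0 and 10 above. More than 2-fold higher in replicate 2 were 30 of 56 (53.6%), against 2.34% of all 17763 genes past the filter. The share was 39.7% of 597 other pseudogenes and 0.791% of 15415 protein-coding genes. The other pseudogenes are not free of ribosomal protein copies: they hold Rpl6l at -2.14 and Rps3a2 at -1.57, and also Rps12l1 at -0.03 and Rpl37rt at 0.23. At 1.5-fold the count was 36, against 5.15% of all genes, and at 4-fold it was 6, against 0.422%. More than 2-fold higher in replicate 1 were 0 of 56, against 1.24% of all genes. The filter bears on this 0, since it left out Rpl7a-ps11 with 105 and 0 expected counts and Rpl30-ps9 with 88.2 and 0. Of the 195 that did not pass, 55 had the higher TPM in replicate 2, 45 in replicate 1 and 95 were equal.

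Parents did not share this difference. The median ratio of the 79 ribosomal protein genes was 0.22, from -0.12 to 0.52, with 72 above 0. That direction turned with scaling by the spike-in RNAs, which put the median at -0.36 with 0 of 79 above 0 and shifted the median of all genes by -0.57. The same scaling put the median of the pseudogenes at -1.63, since it moves all genes alike. With members and parent summed, the median ratio of 56 families was 0.16 against 0.22 for the parents alone.

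**Figure D3:**
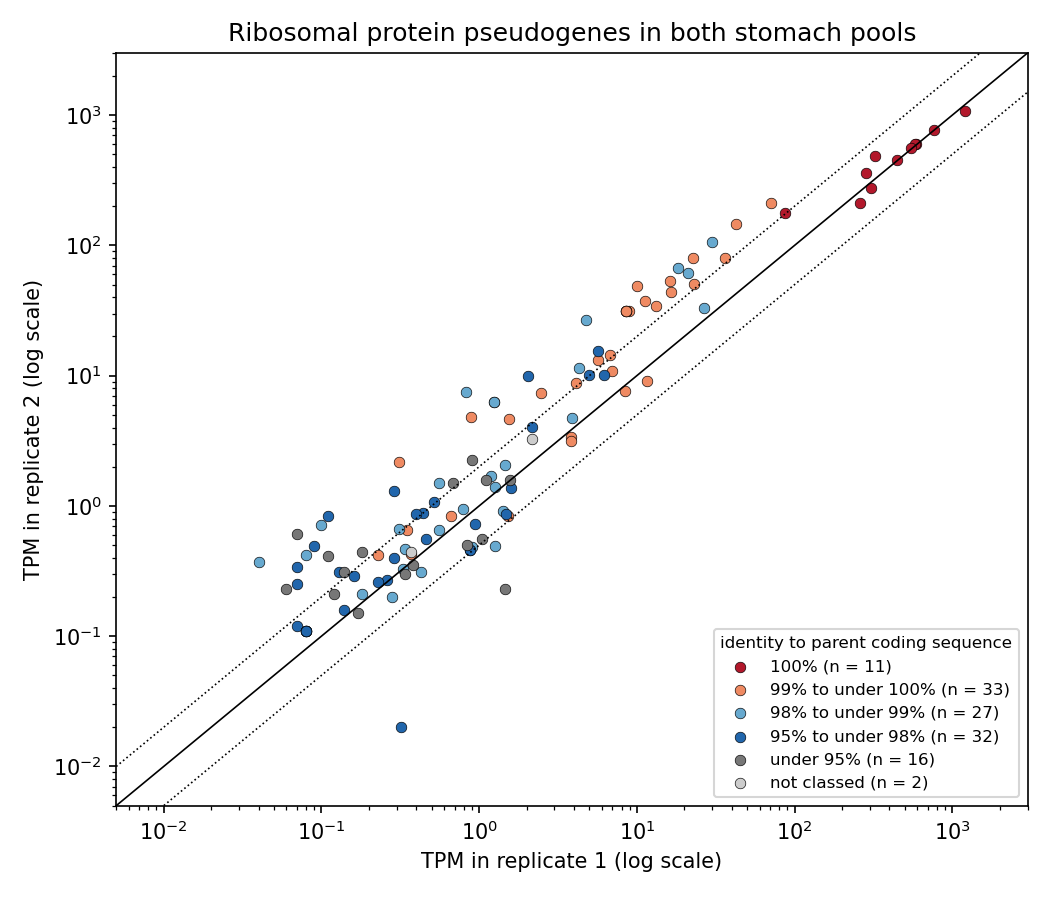
TPM in replicate 2 against TPM in replicate 1 (both log scales) for the 121 pseudogenes above 0 in both libraries, coloured by identity to the parent, with a solid line at equality and dotted lines at 2-fold. Of the 11 identical copies, Rps16-ps2 (87.5 and 179 TPM) lies just above the upper dotted line and the others lie between the lines, while most of the copies from 99% to under 100% that passed the low-count filter (22 of 27 by CPM ratio) lie above the upper line.

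The difference was not spread evenly over identity classes. The 11 identical copies had a median ratio of 0.00, from -0.99 to 0.35, and 0 were beyond 2-fold. The 27 copies from 99% to under 100% that passed the filter had a median of -1.45, with 22 more than 2-fold higher in replicate 2. The 10 copies from 98% to under 99% had a median of -1.42, with 6 beyond 2-fold. The 5 from 95% to under 98% had -0.94, and the 2 below 95% had -0.46. By stretches of their own, the 15 without any that passed the filter had a median of -0.02 and the 4 with only their own had -1.35. Between them the medians were -1.26 for 10 copies with up to 25% own stretches, -1.49 for 11 with up to 50%, -1.57 for 8 with up to 75% and -0.60 for 8 with more, so there was no steady order.

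**Figure D4:**
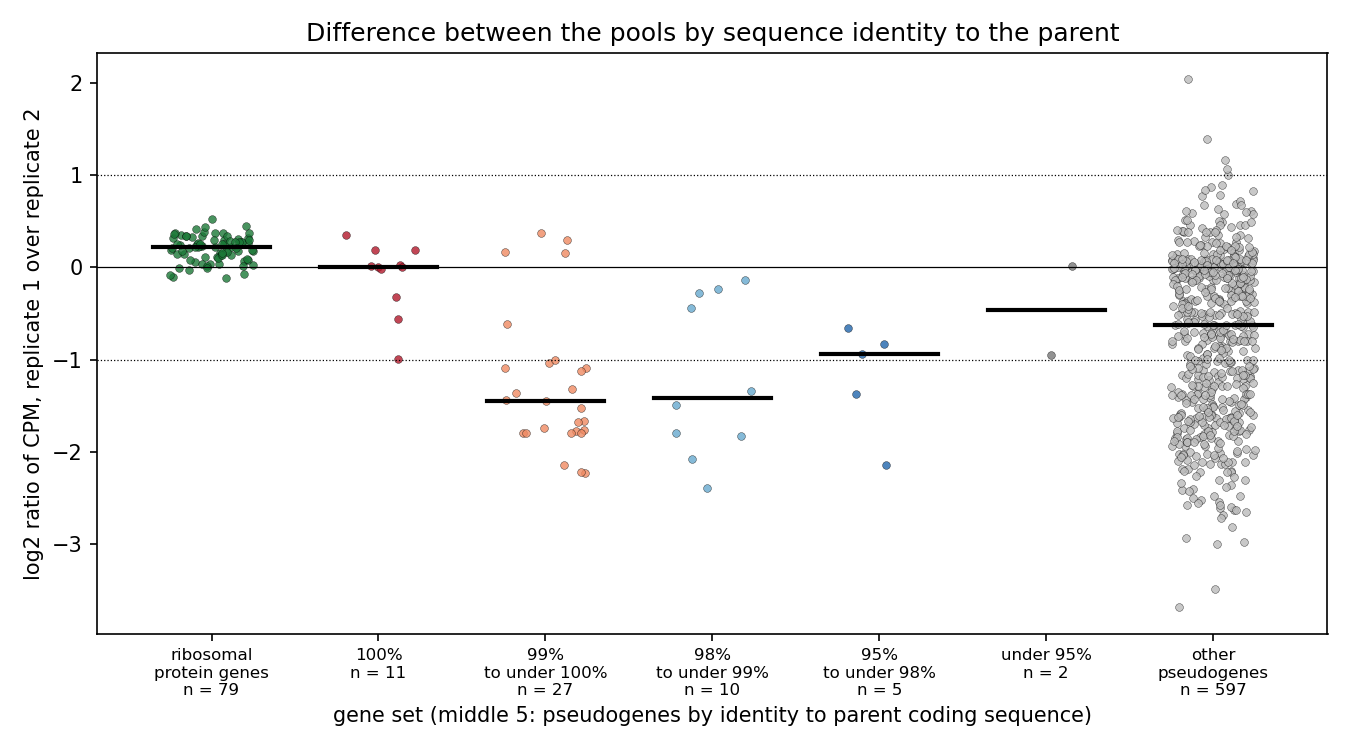
Log2 ratio of CPM, replicate 1 over replicate 2, for ribosomal protein genes, pseudogenes by identity to the parent, and other pseudogenes, each point 1 gene and each thick bar a median. Medians are 0.22 for ribosomal protein genes, 0.00 for identical copies, -1.45 and -1.42 for the next 2 classes and -0.63 for other pseudogenes.

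Among the 56 pseudogenes past the filter, the largest differences toward replicate 2 were those of Rps25-ps1 and Rps26-ps1. Rps25-ps1 stood at 4.75 and 26.97 TPM, from 40.7 and 129 expected counts, a log2 ratio of -2.39. Its parent Rps25, a small-subunit gene, stood at 907 and 866 TPM. Rps26-ps1, annotated as transcribed and within an intron of Wwp2 on the opposite strand, stood at 10.0 and 48.7 TPM, a ratio of -2.23, against 1006 and 887 for Rps26. Their deposited intervals did not overlap, running from 2.85 to 6.99 and from 20.4 to 32.5 for Rps25-ps1, and from 7 to 13.7 and from 37.8 to 56.7 for Rps26-ps1.

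Rps15-ps2, a copy of Rps15 with 99.4% of its stretches its own, stood at 2.05 and 9.95 TPM, a ratio of -2.14. Rpl13-ps6 stood at 1.25 and 6.24 TPM, a ratio of -2.14, from 20.7 and 57.5 counts. Rpl9-ps4 stood at 0.89 and 4.81 TPM, a ratio of -2.22, but its intervals ran from 0.0382 to 3.69 and from 2e-05 to 16.1 and overlap. Rps10-ps1, chosen after its values were seen, did not pass the filter and stood at 0.82 and 7.43 TPM, from 10.1 and 50.9 counts. Its intervals did not overlap, running from 0.383 to 1.52 and from 5.21 to 9.62.

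The highest-level copies with a difference toward replicate 2 had few base differences. Rpl19-ps11, with the single substitution shown above, stood at 71.1 and 211 TPM, a ratio of -1.53. It overlaps an exon of Gm27288 on the same strand, and Rpl19 stood at 749.7 and 636 TPM. Rpl3-ps1, on chromosome X from 13202571 to 13203780, stood at 42.4 and 147 TPM, a ratio of -1.76, against 912 and 754 for Rpl3. Rpl14-ps1 stood at 29.8 and 107 TPM, a ratio of -1.80, against 652 and 575 for Rpl14. Rps10-ps2 stood at 36.4 and 79.9 TPM, a ratio of -1.09, against 674 and 571 for Rps10. In each of these pairs the pseudogene was higher in replicate 2 and the parent was lower there. The deposited lengths of Rpl19-ps11, Rpl14-ps1, Rps26-ps1, Rpl27-ps3 and Rps10-ps1 differ from those of M21, so their sequence measures may not cover all that was counted.

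Among the 56 past the filter, the highest ratios toward replicate 1 were below 2-fold. Rps13-ps4, in an intron of Taf1c on the same strand, stood at 11.6 and 9.17 TPM, a ratio of 0.37. Rpl10-ps1, described above, had 0.35, and Rps13-ps1, at 3.84 and 3.15 TPM, had 0.30. Rpl10a-ps1 and Rps23-ps1 both had 0.19. The deposited intervals of Rps13-ps4, from 8.12 to 15.4 and from 5.13 to 13.4, overlapped.

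The deposited TPM intervals come from the same counts and add no independent evidence. Of the 157 pseudogenes above 0 in a library, intervals stood apart in 29 (18.5%), against 15.3% of 25620 genes. Apart and higher in replicate 2 were 28 of the 157 (17.8%), against 9.85% of the 25620 genes. Apart and higher in replicate 1 was 1 of the 157 (0.637%), Rps23-ps1, against 5.44%. The share apart in either direction was near that of all genes. Among ribosomal protein genes 66 of 79 stood apart, 63 of them higher in replicate 1.

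Families differed in size and in how much of their signal was assigned to copies. Rpl31 and Rps12 had 21 pseudogenes each, Rpl23a and Rps19 14 each and Rpl21 12, while 17 families had 1. Of 28 families with 3 or more copies, Rps12 had 1 detected copy of 21 and Rpl30 had 0 of 9. In 11 families the copies held over 10% of the family's TPM in both libraries. The share was 85.1% and 86.4% for Rps23, 80.7% and 82.0% for Rpl27, and 74.2% and 77.0% for Rpl15. It was 36.5% and 50.2% for Rps13, and 8.70% and 25% for Rpl19.

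Parents of the 11 identical copies were assigned less than other ribosomal protein genes. Their median was 401 and 315 TPM, against 729 and 643 for the other 68 genes. With the identical copies added, the median was 929 and 919.5 TPM. Copies of the other 68 genes were not added to their medians, so these sums and those medians are unlike measures. The median ratio between libraries was 0.28 for these parents and 0.21 for the other 68.

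Some copies are indistinguishable from each other. Rpl35a-ps2, Rpl35a-ps3, Rpl35a-ps4 and Rpl35a-ps6, on chromosomes 1, 17, 2 and 5, share 1 sequence and were each given 61.0 and 125 expected counts, or 8.50 and 31.2 TPM. They have no stretch of their own, and their ratio was -1.80. In total 14 pseudogenes fell into 4 such groups, the largest being 5 copies of Rps12.

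Copies lying within introns were detected more often than those apart from other genes. On the same strand as a host intron 10 of 20 reached 1 TPM in both libraries (50%), on the opposite strand 17 of 53 (32.1%), and away from other genes 28 of 173 (16.2%). The remaining 5 overlapped an exon. Whether counting used the strand is not given in the sources used here, so reads of a host gene and of a copy inside it cannot be told apart. The part of the host gene's level in these shares was not tested.

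The biotype marked the detected copies only in part. Of the 6 annotated as transcribed, 4 were detected: Rpl10-ps1 and Rps26-ps1 above, Rps2-ps10 at 26.7 and 33.2 TPM and Rps15a-ps4 at 1.59 and 1.37. Single-exon copies made up 247 of 251, and 0 of the 4 with 2 exons were detected.

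A pair of copies on chromosome X, chosen after their values were seen, were listed at 0 TPM in replicate 2 and above 1 TPM in replicate 1. Rpl30-ps9 stood at 11.7 and 0 TPM, with intervals of 0.563 to 27.4 and 0.00013 to 50.9. Rpl7a-ps11 stood at 4.87 and 0 TPM, with intervals of 0.501 to 15.3 and 0.197 to 35.2. Both pairs of intervals overlap. The deposited posterior mean TPM ran the other way, at 13.99 and 17.2 for Rpl30-ps9 and at 7.56 and 14.2 for Rpl7a-ps11, so the direction depends on which estimate is read. Chromosome X carried 35 of the 251 pseudogenes (13.9%), against 17.3% of 5281 other processed pseudogenes.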

How the data were processed

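Total RNA over 200 nt from 2 pools of mouse stomach was sequenced with 10 ng per library, per the labels. The build was mm10 and the annotation M4, as the deposited text files state. No aligner or quantifier is named in the sources used here. In each gene table the authors deposited expected counts, which are estimated reads per gene and need not be whole because shared reads are divided. TPM, posterior mean TPM and intervals of TPM (lower and upper bounds, with no confidence level in the headers) were deposited by the authors, as was FPKM, both corrected for length. The deposited effective length of a gene was 99 below its length.

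Symbols and biotypes came from GENCODE M21, which is newer but also on GRCm38, and 42462 of 43346 genes had a symbol. Sequences are M21 transcripts, and for 219 of 251 pseudogenes they had the length of the deposited table. Each was aligned to the longest annotated coding sequence of the parent in Biopython 1.88 (match 2, mismatch -3, gap opening -7, extension -2). Expected counts were rounded, filtered with filterByExpr (1 group) and given TMM factors of 1.01 and 0.992. This used edgeR 4.0.16 in R 4.3.3 with a prior count of 2; spike-ins and features with numeric identifiers stayed out. No p-value was computed. A listed 0 is an estimate after shared reads were divided, so no limit from counting is given for it. Other steps used Python 3.11.15, pandas 2.3.3, numpy 2.4.6, scipy 1.17.1 and matplotlib 3.10.9, and DESeq2 1.42.0 gave an alternative scaling. Ratios and alignments were checked on simulated data. The replicates are labelled biological, from separate pools.

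Pseudogenes and lists were chosen with earlier results of these data known. Named are the 15 highest by mean TPM, the 5 largest ratios each way, the 5 highest relative to the parent, their parents, and detected pseudogenes with another biotype or several exons. Others are named where a count is small or a sequence is shown. An item withheld for evaluation is not reported here.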

Additional observations from a re-analysis of the deposited data

How the results depend on the processing

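No paired analysis was possible because there was 1 group. Ratios between the libraries need both, so leaving out a replicate gives no ratio. Pseudogenes at 1 TPM or more numbered 57; the count was 107 at 0.1 TPM, 37 at 5 TPM and 65 with either library left out. The mean share of family TPM, 10.4%, was 7.5% by expected counts and ran from 9.11% to 11.6% with a library left out. The 30 of 56 pseudogenes more than 2-fold higher in replicate 2 were 6 of 56 at 4-fold. The count was 22 of 40 at a mean of 50 expected counts or more and 45 of 251 without a low-count filter. It was 29 to 38 of 56 under the other scalings, prior counts and units. The share of all genes more than 2-fold higher is not given for these alternatives, so the counts are a description. The median log2 ratio of -1.06 was -1.63 with spike-in totals and 0 without a low-count filter, where most of the 251 have few or no counts. It was -1.36 without the 11 identical copies (n = 45), an alternative chosen after seeing the data, as was counting the Rpl35a copies once, which gave 27 of 53. The median level relative to the parent, 0.0279%, was 0.08% by posterior mean TPM, 2.28% among the 57 with 10 expected counts in both, and 0.0259% to 0.0299% with a library left out. The count of intervals apart, 29, was the same after rescaling and by FPKM. The cause of these shifts was not tested. For the 195 pseudogenes that did not pass the filter no ratio is given, and the part of depth in this was not tested.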
